A study of Homo sapiens with 16 samples.

Results

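The genes described here were 9 of the 69222 gene rows of a count table from SH-SY5Y cells, a human neuroblastoma line that grows neurites when it is differentiated. They were the proneural basic helix-loop-helix (bHLH) factors NEUROG2 and NEUROD1, the HES and HEY factors HES1, HES6 and HEY1, the ligands DLL1 and DLL3, and the receptors NOTCH1 and NOTCH2, taken by symbol. Of the 9, 8 held counts and passed the filter on low counts, and DLL1 was listed at 0 in all 16 libraries. Polyadenylated RNA was sequenced from 8 groups of 2 libraries each: untreated cells on culture plates, differentiated cells on culture plates, and cells differentiated on P(rGO), PEDOT:PSS or ITO films, each film without and with electrical stimulation (ES). P(rGO) is a composite of a polymer with reduced graphene oxide, PEDOT:PSS is a conducting polymer blend and ITO is indium tin oxide. All groups but the untreated one shared the same differentiation, in which serum fell to 5%, 2.5% and 1% from days 2, 3 and 5, retinoic acid at 10 µM was present between days 3 and 6, and BDNF at 50 ng/mL followed for 4 days. Stimulated cultures received a square wave of 0.1 V at 1 Hz during 8 h of each of those last 4 days. The labels name poly-L-lysine and laminin as the coat of the films and no coat for the plates, so film and coat cannot be told apart. All libraries came from a single line. The labels do not tell whether replicates were separate cultures, so each p-value reflects the spread of these libraries alone, which could be technical.

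Proneural bHLH factors drive progenitors toward neurons by binding E-box motifs together with ubiquitous E proteins. Notch signalling holds this back: a Delta-type or Jagged ligand on a neighbouring cell releases the intracellular part of the receptor, which joins RBPJ on DNA and switches on HES and HEY repressors, and these in turn repress proneural genes. HES6 is a relative that opposes HES1, and ID proteins sequester the E proteins. Neuroblastoma, the tumour type of the line, arises from the sympathoadrenal lineage of the neural crest.

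The promoter of HES1 is shown because HES1 is the textbook direct target of the Notch and RBPJ complex. HES1 was also among the members that separated films from differentiated plates. Promoters from the RefSeq table (GRCh38.p14) were used for 6 of the 9 members: NEUROG2, NEUROD1, HES1, HES6, NOTCH1 and NOTCH2. Those of the remaining members were not searched, so their motifs are not known here. The 250 bases before each start were searched on both strands. Capitals mark TGGGAA, the core of an RBPJ-type motif, on the gene's strand.
HES1 promoter, chr3:194135898-194136147, plus strand: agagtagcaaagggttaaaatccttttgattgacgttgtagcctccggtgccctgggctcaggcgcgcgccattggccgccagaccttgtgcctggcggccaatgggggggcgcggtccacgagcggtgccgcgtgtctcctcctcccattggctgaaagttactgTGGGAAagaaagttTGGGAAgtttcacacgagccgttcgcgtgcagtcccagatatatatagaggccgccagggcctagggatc
The 2 copies began 84 and 70 bases before the start. None of the other 5 promoters held TGGGAA in this window, and 20.8% of all 35116 promoters in the table did. The HES1 window also held 3 matches to CACNAG, the N-box that HES repressors are known to bind, which 32.0% of promoters contained, and 4 to CACGNG (26.7%). The CACNAG and CACGNG matches share bases where the letters read CACGAG. The E-box CANNTG was found once, in HES6, against 61.8% of promoters. A match is a description of letters and not a site shown to be bound.

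Libraries held 15600410 to 20851000 reads assigned to genes, and 18081 genes were tested. The biological coefficient of variation between replicates was 36.2% in untreated cells, 18.1% on differentiated plates and 6.88% to 18.2% in the film groups, so the untreated libraries stood apart from each other most. Levels are CPM, the reads of a gene relative to the scaled library size, and a gene was called at an adjusted p of at most 0.05 in edgeR's quasi-likelihood test over all genes. Of 10 adrenergic neuroblastoma markers, 8 or 9 exceeded 1 CPM in every group and CHGA was at 0. Their summed level was 5910 to 6068 CPM in untreated cells, 4071 to 4163 CPM on differentiated plates and 2953 to 3629 CPM on films. Of 10 fibroblast markers, 6 or 7 exceeded 1 CPM in every group, with sums of 423.8 to 637.1 CPM in untreated cells, 220.7 to 251.8 CPM on differentiated plates and 194 to 331.6 CPM on films, and POSTN was at 0 throughout. Of 7 Schwann cell markers, 3 or 4 exceeded 1 CPM, with sums of 36.21 to 36.31, 13.63 to 14.01 and 13.4 to 19.27 CPM in the same order, and SOX10, the defining factor, was at 0 throughout. Both sums were highest in untreated cells, and their part in the differences of the members from untreated cells was not tested. Zeros of single markers, here of CHGA, POSTN and SOX10, were not read as levels of these genes, as with DLL1 below.

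Per kilobase of exon, the members spanned a wide range of levels in untreated cells. HES6 was highest at 32.9 ± 1.61 CPM per kb (SD, n = 2), followed by DLL3 at 10.9 ± 0.396, NEUROG2 at 10.6 ± 4.18, HEY1 at 8.68 ± 2.56 and NOTCH2 at 6.57 ± 2.64 CPM per kb. HES1 at 2.01 ± 0.727, NOTCH1 at 1.52 ± 1.22 and NEUROD1 at 1.21 ± 0.287 CPM per kb were the low members. On unstimulated ITO films the order differed: HES6 remained highest at 45.8 ± 0.693 CPM per kb and HEY1 was next at 26.02 ± 1.94, while NEUROG2 had the lowest level of the 8, 0.231 ± 0.106 CPM per kb.

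**Figure D1:**
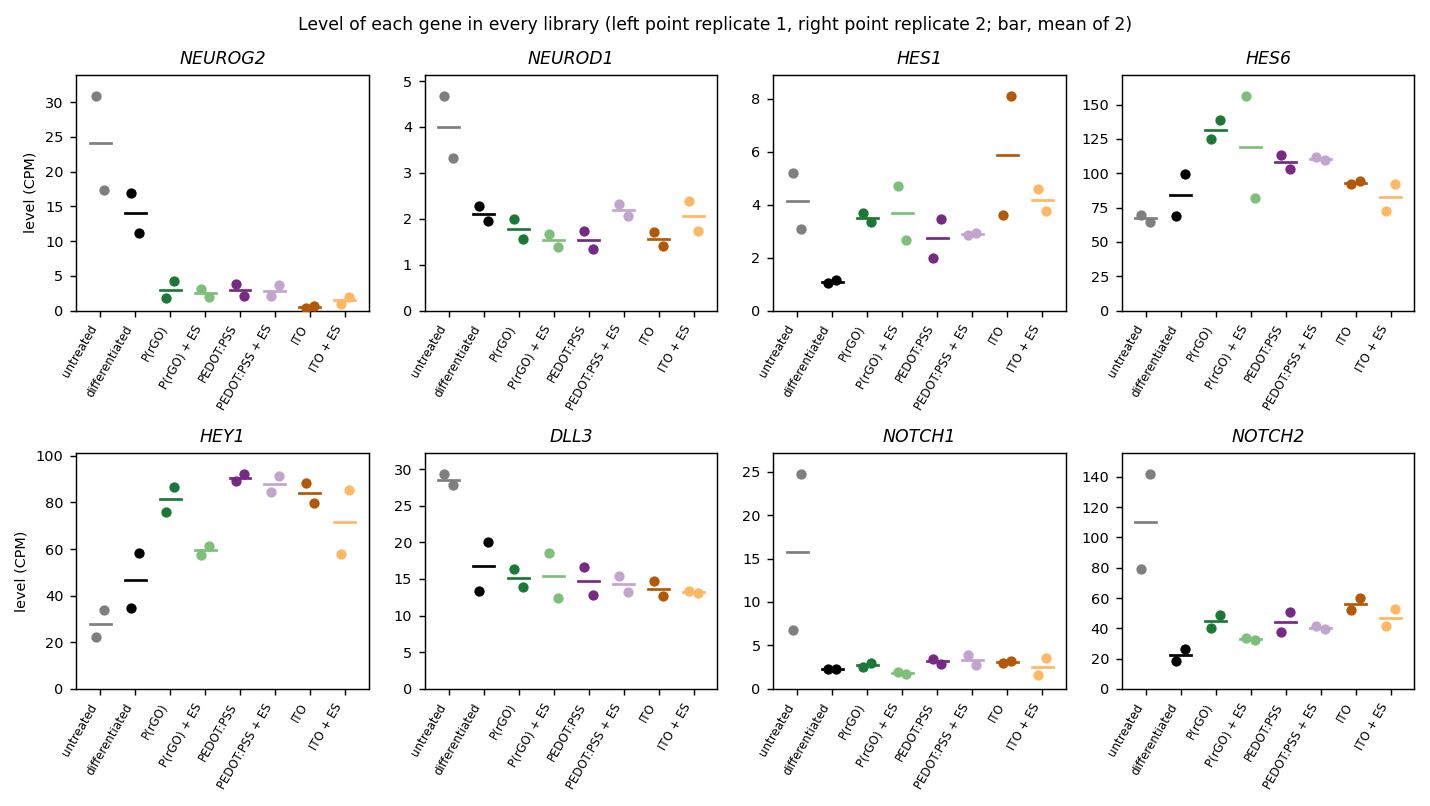
Levels of the 8 members with counts in the 16 libraries, in CPM on linear axes, by group. Each point is a library and each bar the mean of a group of 2. NEUROG2 lies below both plate groups on all films, and HES1 and NOTCH2 are lowest on differentiated plates.

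The first comparison asked what differentiation on plates did to these genes. Of the 8 members tested, 1 rose (HEY1) and 5 fell (NEUROD1, HES1, DLL3, NOTCH1 and NOTCH2), where 29.6% of all genes were called. The median log2 fold change of the members was -0.85, against -0.01 over all genes. Less RNA of a gene in a bulk sample may mean fewer cells that express it or less RNA per cell, which cannot be told apart here. Dividing-cell markers moved the same way, with a summed level of 2064 to 2908 CPM in untreated cells and 515.7 to 914.7 CPM on differentiated plates, all 10 markers being above 1 CPM in both. The summed level of mesenchymal neuroblastoma markers went from 970.8 to 1490 CPM down to 298.8 to 300.1 CPM. Of these 10 markers, 9 and 5 were above 1 CPM, and PRRX1 was at 0. In group means TWIST1 went from 650.8 to 144.4 CPM and VIM from 310.7 to 12 CPM. IL6ST went the other way, from 113.4 to 129 CPM. The part of either marker list in the members' changes was not tested. In a fit of only these 4 libraries, 1 of the 6 calls was left, that of NOTCH2.

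The second comparison set the differentiated films against differentiated plates, the same 2 plate libraries serving for every film. On unstimulated P(rGO), 1 of the 8 members rose (NOTCH2) and 1 fell (NEUROG2), against 4.63% of all genes called. On unstimulated PEDOT:PSS 1 fell (NEUROG2), against 1.48% of all genes. On unstimulated ITO 2 rose (HES1 and NOTCH2) and 1 fell (NEUROG2), against 4.23%. The stimulated films gave the same members as calls on PEDOT:PSS (NEUROG2, 1.25% of all genes called) and on ITO (NEUROG2, HES1 and NOTCH2, 2.18%), and NEUROG2 alone on P(rGO) (1.68%). Without regard to the model, all 12 film libraries lay below both plate libraries for NEUROG2 and above both for HES1 and NOTCH2, and 17.5% of the genes tested showed such a separation in either direction.

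Against untreated cells, the mean of the 3 unstimulated films was higher for 2 members (HES6 and HEY1) and lower for 5 (NEUROG2, NEUROD1, DLL3, NOTCH1 and NOTCH2), where 44.8% of all genes were called. HES1 was the member not called. The same 7 members had all 12 film libraries on 1 side of both untreated libraries, which held for 40.2% of genes.

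NEUROG2 (ENSG00000178403), a proneural factor of cortical and sensory progenitors, lies on chromosome 4 from 112513516 to 112516172 in GRCh38. It measured 30.9 and 17.4 CPM in the untreated libraries and 16.9 and 11.1 CPM on differentiated plates. On P(rGO) it measured 1.83 and 4.22 CPM without and 3.08 and 1.91 CPM with stimulation, and on PEDOT:PSS 3.83 and 2.11 CPM without and 2.05 and 3.65 CPM with it. On ITO it measured 0.355 and 0.699 CPM without stimulation and 0.939 and 1.97 CPM with it. The film libraries were all low, the plate libraries all high, and the unstimulated ITO libraries were the lowest of the 16, resting on 18 reads in all.

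NEUROG2 had the widest spread of the 8 members, 86.9-fold between the highest and the lowest library. The fall on plates, -0.78 on the log2 scale (SE 0.44), did not pass the test (adjusted p = 0.192 in edgeR). Against plates, NEUROG2 was 26.2-fold lower on unstimulated ITO (log2 fold change -4.71, SE 0.59, adjusted p = 0.000827 in edgeR). It was 4.63-fold lower on P(rGO) (-2.21, SE 0.48, adjusted p = 0.0195) and 4.75-fold lower on PEDOT:PSS (-2.25, SE 0.48, adjusted p = 0.0346). In order of mean level, untreated cells stood above differentiated plates and both above every film. The 4 groups of P(rGO) and PEDOT:PSS overlapped one another, stimulated ITO overlapped both P(rGO) groups, and unstimulated ITO lay below all.

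The fall of NEUROG2 on unstimulated ITO kept its call in all 10 alternative fits, with adjusted p no higher than 0.0137. Without differentiated plate replicate 1, the call was lost on P(rGO) (adjusted p = 0.189) and PEDOT:PSS (adjusted p = 0.316) and, with stimulation, on P(rGO) (0.298), PEDOT:PSS (0.333) and ITO (0.0647). It was also lost on P(rGO) without its unstimulated replicate 1 (0.216), on PEDOT:PSS without either unstimulated replicate (0.149 and 0.334), and on the stimulated films without either replicate of P(rGO) (0.192 and 0.105) or PEDOT:PSS (0.442 and 0.131) or without ITO replicate 1 (0.0688). NEUROG2 overlaps an antisense RNA, AC023886.1, which held 47 reads in all against 1828 for NEUROG2.

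NEUROD1 (ENSG00000162992; chromosome 2, 181673088 to 181680876), which acts after the neurogenins in neuronal differentiation, was a low gene throughout. It measured 4.67 and 3.33 CPM in untreated cells, 2.28 and 1.95 CPM on differentiated plates, and 1.35 to 2.39 CPM with a median of 1.72 CPM over the 12 film libraries. Both untreated libraries were above all others, and the differentiated groups overlapped their neighbours in order of level. The fall on plates was 1.89-fold (log2 -0.92, SE 0.30, adjusted p = 0.0358 in edgeR), and of the 4 fits that left out a library it was called only in that without untreated replicate 2 (the others gave adjusted p of 0.0728 to 0.189). Film groups differed from plates by -0.47 to 0.05 on the log2 scale, none called. CERKL overlaps NEUROD1 on the same strand and held 82 reads in all, against 609.

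**Figure D2:**
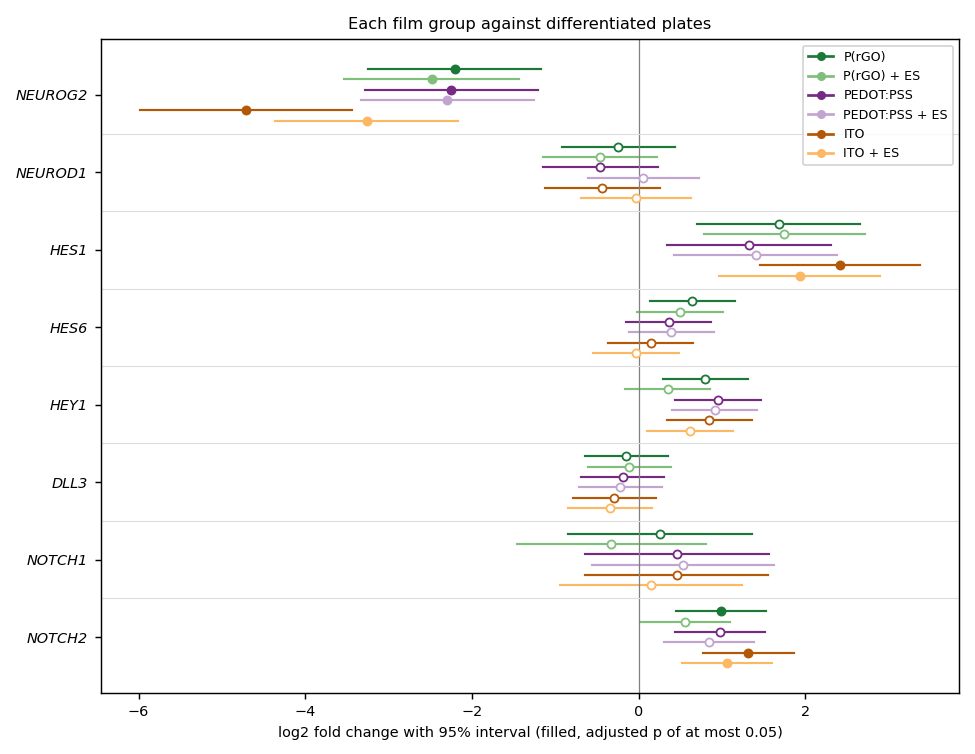
Log2 fold changes against differentiated plates for the 8 members, without and with stimulation, with 95% intervals. Filled points passed an adjusted p of 0.05. NEUROG2 is filled and below 0 on all 6 film groups, while DLL3 and NEUROD1 intervals include 0.

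HES1 (ENSG00000114315; chromosome 3, 194136145 to 194138732), the repressor whose promoter is printed above, was lowest on differentiated plates. It measured 5.21 and 3.09 CPM in untreated cells and 1.03 and 1.15 CPM on differentiated plates. On P(rGO) it measured 3.66 and 3.36 CPM without and 4.70 and 2.66 CPM with stimulation. On PEDOT:PSS it measured 1.98 and 3.46 CPM without and 2.86 and 2.94 CPM with it, and on ITO 3.61 and 8.10 CPM without and 4.60 and 3.76 CPM with it. The differentiated plate libraries were below all others, and film and untreated libraries overlapped.

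HES1 fell 3.78-fold on plates (log2 -1.92, SE 0.45, adjusted p = 0.00713 in edgeR). On unstimulated ITO it was 5.34-fold higher than on plates (log2 2.42, SE 0.45, adjusted p = 0.00813) and on stimulated ITO 3.81-fold higher (log2 1.93, SE 0.45, adjusted p = 0.0378). The rises on P(rGO), 1.68 (SE 0.45), and on PEDOT:PSS, 1.32 (SE 0.46), did not pass the test (adjusted p = 0.0508 and 0.199). The mean of the unstimulated films differed from untreated cells by -0.11 on the log2 scale, with an interval from -0.83 to 0.60.

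Unstimulated ITO replicate 2 carried much of the ITO value of HES1, and without it the log2 fold change was 1.72 (adjusted p = 0.117). In the same library ID1 stood at 27.7 against 4.32 CPM in replicate 1, and ID2 at 70.5 against 13.1 CPM; the part of this library's other differences in the HES1 value was not tested. The HES1 call on ITO was also lost without plate replicate 1 (adjusted p = 0.111), that on stimulated ITO in each of 4 fits that left out a library, and the fall on plates without plate replicate 2 (adjusted p = 0.0567).

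**Figure D3:**
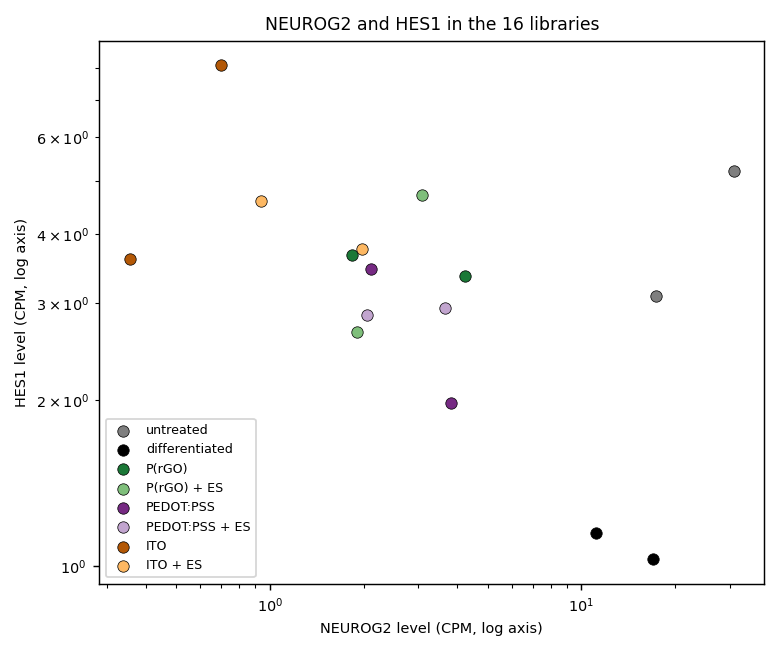
HES1 level against NEUROG2 level in the 16 libraries, both in CPM on log axes. Differentiated plates have the lowest HES1 (1.03 and 1.15 CPM) beside 16.9 and 11.1 CPM of NEUROG2, films combine low NEUROG2 with higher HES1, and untreated libraries are high for both.

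Set side by side, the 2 genes did not follow a single opposed pattern. The untreated libraries were high for both, differentiated plates were high for NEUROG2 and low for HES1, and films were low for NEUROG2 and higher for HES1. Over the 16 libraries the correlation of log2 CPM was -0.46, and over the 12 film libraries -0.53. These are descriptions of libraries that share groups, and they carry no test.

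HEY1 (ENSG00000164683; chromosome 8, 79764010 to 79767863), a repressor of the HEY branch of Notch targets, was an abundant member that increased from untreated cells to films. It measured 22.2 and 33.9 CPM in untreated cells, 34.9 and 58.5 CPM on differentiated plates, and 57.4 to 92.1 CPM with a median of 84.8 CPM over the 12 film libraries. All 12 film libraries lay above both untreated ones, and 10 lay above both plate libraries. HEY1 rose 1.67-fold on plates (log2 0.74, SE 0.24, adjusted p = 0.0353 in edgeR) and was 3.04-fold higher on unstimulated films than in untreated cells (log2 1.60, SE 0.22, adjusted p = 6.09e-05).

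Against plates, the log2 difference of HEY1 was 0.95 for PEDOT:PSS, 0.85 for ITO and 0.80 for P(rGO), each SE 0.24, and passed on none in the main model (adjusted p = 0.0665, 0.0643 and 0.0737 in edgeR). All 3 were called by DESeq2, without the low-count filter and without the untreated libraries. The rise on plates was lost without untreated replicate 1 (adjusted p = 0.189) or plate replicate 2 (adjusted p = 0.452).

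HES6 (ENSG00000144485; chromosome 2, 238238267 to 238240662), the factor that counters HES1, had the highest level per kilobase in every group. It measured 69.4 and 64.8 CPM in untreated cells and 68.8 and 99.8 CPM on differentiated plates. On P(rGO) it measured 124.8 and 138.7 CPM without and 156.3 and 81.8 CPM with stimulation, so the stimulated replicates lay on either side of the unstimulated ones. PEDOT:PSS libraries lay between 103.3 and 113.3 CPM and ITO libraries between 72.5 and 94.2 CPM. The mean of the unstimulated films was 1.64-fold above untreated cells (log2 0.71, SE 0.20, adjusted p = 0.0116 in edgeR), and no film differed from plates past the threshold. The call against untreated cells was lost without untreated replicate 2 (adjusted p = 0.0919).

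Of the 2 Delta-type ligands only DLL3 had counts. DLL3 (ENSG00000090932; chromosome 19, 39498895 to 39508481), which is known to block Notch within the cell that makes it, measured 29.3 and 27.8 CPM in untreated cells and 13.4 and 20.1 CPM on differentiated plates. Over the 12 film libraries it stayed between 12.4 and 18.6 CPM with a median of 13.6 CPM. Both untreated libraries were above all others, and all differentiated groups overlapped their neighbours in order of level. It fell 1.71-fold on plates (log2 -0.77, SE 0.23, adjusted p = 0.0234 in edgeR), and the films differed from plates by -0.34 to -0.11 on the log2 scale, none called. The fall on plates was lost without plate replicate 1 (adjusted p = 0.174).

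DLL1 (ENSG00000198719; chromosome 6, 170282206 to 170306565) was listed at 0 in every library. FAM120B, a gene that overlaps it on the opposite strand and is broadly expressed, held 2 reads over all 16 libraries. The neighbouring PSMB1 and TBP held 1570 to 2377 and 453 to 769 reads per library. The zeros of DLL1 were therefore not read as its level.

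NOTCH2 (ENSG00000134250; chromosome 1, 119911553 to 120069626) was more abundant than NOTCH1, the other receptor among the members. NOTCH3, a receptor outside the members, had higher mean CPM than NOTCH2 in every group. Its means were 147.8 CPM in untreated cells, 100.8 CPM on differentiated plates and 101 to 124.1 CPM on films. NOTCH2 measured 79.1 and 141.7 CPM in untreated cells and 18.6 and 26.3 CPM on differentiated plates. On P(rGO) it measured 40.4 and 48.8 CPM without and 33.7 and 32.5 CPM with stimulation. On PEDOT:PSS it measured 37.7 and 50.6 CPM without and 41.5 and 39.4 CPM with it, and on ITO 52.0 and 59.8 CPM without and 41.2 and 52.5 CPM with it. The film libraries formed a middle level that overlapped neither plate group.

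NOTCH2 fell 4.91-fold on plates (log2 -2.30, SE 0.26, adjusted p = 7.96e-05 in edgeR), and the mean of the unstimulated films was 2.30-fold below untreated cells (log2 -1.20, SE 0.19, adjusted p = 2e-04). Against plates it was 2.49-fold higher on unstimulated ITO (log2 1.32, SE 0.25, adjusted p = 0.01), 1.99-fold higher on unstimulated P(rGO) (0.99, SE 0.25, adjusted p = 0.0403) and 2.09-fold higher on stimulated ITO (1.06, SE 0.25, adjusted p = 0.0432). On unstimulated PEDOT:PSS the difference was 0.98 (SE 0.25, adjusted p = 0.0745).

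The NOTCH2 calls against plates rested on few libraries. Without plate replicate 1 the call was lost on P(rGO) (adjusted p = 0.364) and ITO (0.158), and it was lost without ITO replicate 2 (0.0936), without either P(rGO) replicate (0.124 and 0.244) and, on stimulated ITO, in each of 4 fits that left out a library. NOTCH2 has near-identical partial copies, of which NOTCH2NLC held 5 to 26 reads per library and NOTCH2NLA, NOTCH2NLB and NOTCH2NLR held 9, 1 and 0 reads in all, so its level is uncertain to the extent that reads were placed at more than 1 copy.

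NOTCH1 (ENSG00000148400; chromosome 9, 136494433 to 136545786) was high only in untreated cells, where the libraries measured 6.80 and 24.7 CPM. It measured 2.28 and 2.30 CPM on differentiated plates and 1.55 to 3.88 CPM with a median of 2.91 CPM on the 12 film libraries. The untreated libraries differed from each other more than any 2 differentiated libraries did, and both lay above all others. The fall on plates was 6.86-fold (log2 -2.78, SE 0.50, adjusted p = 0.00161 in edgeR), and alternative fits gave values from -3.44 to -1.57. Film groups differed from plates by -0.33 to 0.53 on the log2 scale, none called.

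The unstimulated films were next set against one another. No member passed in the 3 pairs, and 0% of all genes were called in each by edgeR, with 243 genes at an unadjusted p under 0.05 for PEDOT:PSS against P(rGO), 299 for ITO against P(rGO) and 283 for PEDOT:PSS against ITO. DESeq2 called no member and 0, 0 and 2 genes. On the log2 scale NEUROG2 differed by -2.50 for ITO against P(rGO) (interval -3.84 to -1.17, adjusted p = 1 in edgeR) and by 2.47 for PEDOT:PSS against ITO (interval 1.13 to 3.80, adjusted p = 1). Without the low-count filter edgeR called NEUROG2 in both pairs (adjusted p = 3.3e-06 and 1.18e-05) and 48 of all genes in each, and DESeq2 gave adjusted p of 0.0893 and 0.104. Between PEDOT:PSS and P(rGO) it differed by -0.04, with an interval from -1.12 to 1.04. NEUROG2 in those 2 pairs and HES1 for PEDOT:PSS against ITO (-1.096, interval -1.98 to -0.21) were the members with an unadjusted p under 0.05. The libraries of ITO and P(rGO) did not overlap for NEUROG2, HES6, NOTCH1 and NOTCH2, as was the case for 29.6% of all genes. Those of PEDOT:PSS and ITO did not overlap for NEUROG2, HES1, HES6, HEY1 and NOTCH2 (33.2% of all genes), and those of PEDOT:PSS and P(rGO) for HES6 and HEY1 (35.6% of all genes).

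The effect of stimulation was tested on each film, as a mean over films and as a difference between films. No member was called in any of the 5 tests, and 0% of all genes were called by edgeR. At an unadjusted p under 0.05 there were 986 genes on P(rGO), 126 on PEDOT:PSS, 293 on ITO, 1021 for the mean and 133 for the difference between films. DESeq2 called 14, 0, 0, 7 and 0 genes, with no member among them.

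NEUROG2 on ITO was the only member with an unadjusted p under 0.05. It was 2.73-fold higher with stimulation (log2 1.45, interval 0.05 to 2.85, adjusted p = 1 in edgeR), and the 2 stimulated libraries lay above both unstimulated ones, all 4 being low. On P(rGO) it differed by -0.28 (interval -1.36 to 0.81) and on PEDOT:PSS by -0.05 (interval -1.13 to 1.03), and the difference between films did not pass (adjusted p = 1 in edgeR). HEY1 on P(rGO) differed by -0.45 (interval -0.96 to 0.06, adjusted p = 0.943), with 57.4 and 61.5 CPM in stimulated and 76.0 and 86.6 CPM in unstimulated libraries. Stimulated and unstimulated libraries did not overlap for HEY1, NOTCH1 and NOTCH2 on P(rGO) (38.5% of all genes), for NEUROD1 on PEDOT:PSS (36.4%) and for NEUROG2 and NEUROD1 on ITO (27.4%). Dividing-cell markers summed to 227.5 to 284.9 CPM on stimulated and 448.9 to 514.4 CPM on unstimulated P(rGO), and their part in the HEY1 difference was not tested. For the mean over films the intervals of the 8 members ran from -0.91 at the lowest (NOTCH1) to 1.07 at the highest (NEUROG2), so changes of these sizes were not excluded.

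**Figure D4:**
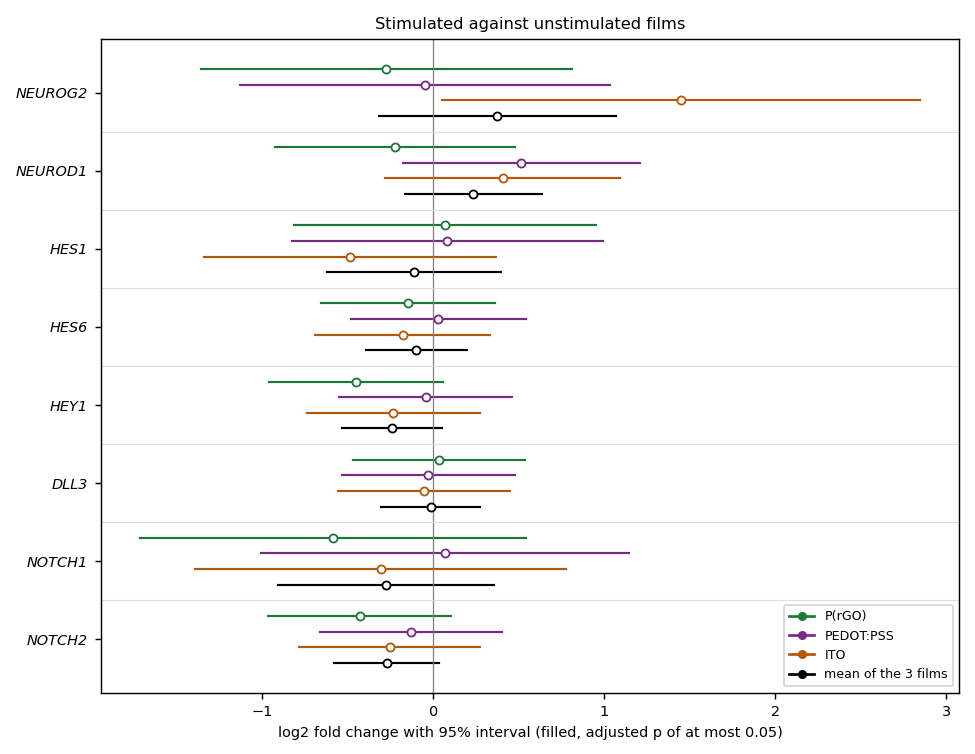
Log2 fold changes of stimulated against unstimulated cells for the 8 members on each film and as a mean of the 3 films, with 95% intervals. No point is filled, since none passed an adjusted p of 0.05, and only the interval of NEUROG2 on ITO leaves out 0.

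Around the members, 6 lists of pathway genes with 79 genes were examined, of which 57 were tested. On plates 8 rose and 18 fell, which is 45.6% of the tested genes against 29.6% of all genes, with a median log2 fold change of -0.07 against -0.01 for all genes. Of these genes, 2 rose and 6 fell on unstimulated P(rGO) against plates (14%, all genes 4.63%; median -0.01, all genes -0.02). PEDOT:PSS without stimulation gave 1 and 2 (5.26%, all genes 1.48%; median -0.07, all genes -0.02), and ITO 3 and 8 (19.3%, all genes 4.23%; median -0.07, all genes -0.02). On stimulated P(rGO) and PEDOT:PSS 2 genes each fell (3.51%, all genes 1.68% and 1.25%), and on stimulated ITO 1 rose and 4 fell (8.77%, all genes 2.18%). Over all genes, P(rGO), PEDOT:PSS and ITO in turn gave 303, 226 and 394 calls with stimulation and 838, 267 and 764 without it, and on PEDOT:PSS this order turned without the low-count filter (896 and 872). On the mean of the unstimulated films 10 were higher and 23 lower than in untreated cells (57.9%, all genes 44.8%; median -0.21, all genes -0.01).

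Among the 8 other receptors and ligands tested, DLK1, a non-canonical Delta-like protein that can inhibit Notch, was the gene called on all 6 film groups. It measured 355.2 and 384.7 CPM in untreated cells, 110.9 and 47.2 CPM on differentiated plates and 9.04 to 30.1 CPM on films, so the 3 sets did not overlap. It was 5.90-fold lower on unstimulated ITO than on plates (log2 -2.56, SE 0.36), 4.61-fold lower on P(rGO) and 3.16-fold lower on PEDOT:PSS. The ITO call held in each of 4 fits without a library, that on P(rGO) was lost without plate replicate 1 (adjusted p = 0.0596) or P(rGO) replicate 2 (0.063), and that on PEDOT:PSS held only without plate replicate 2. With stimulation the DLK1 call on P(rGO) was lost without plate replicate 1 (adjusted p = 0.0688), and those on PEDOT:PSS and ITO held only without plate replicate 2, the other fits giving 0.171 to 0.26 and 0.0539 to 0.0894. JAG1, a canonical ligand, measured 21.5 and 21.0 CPM in untreated cells, 8.74 and 9.49 CPM on plates and 3.63 to 7.06 CPM on films, and its fall on plates was called (log2 -1.22, SE 0.27), as was its fall on unstimulated ITO against plates (-1.15, SE 0.28). The ITO call of JAG1 was lost in each fit without a library.

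Of the 23 genes of Notch processing and trafficking, 4 rose and 3 fell on plates (30.4%, against 29.6% of all genes). Of the 3 fringe enzymes, which add sugars to Notch and change its response to ligands, LFNG fell by 0.92 and MFNG by 3.30 on the log2 scale. RFNG, the most abundant of them in reads, averaged 123.5 CPM in untreated cells and 104.6 CPM on plates, a difference of -0.24 that was not called (adjusted p = 0.515 in edgeR). The LFNG call held only in the fit without untreated replicate 2, and that of MFNG was lost without plate replicate 2 (adjusted p = 0.0543). LFNG measured 16.2 and 7.08 CPM in untreated cells, 5.59 and 6.69 CPM on plates and 1.69 to 3.95 CPM on films. NEURL1B, a ubiquitin ligase for Notch ligands, fell by 1.36 (SE 0.25). DTX4, a Deltex protein, rose by 1.07 (SE 0.24) on plates and was lower than on plates on unstimulated P(rGO) (-1.08, SE 0.24) and ITO (-1.25, SE 0.24). Of the fits without a library, the DTX4 calls on both films held only in that without plate replicate 2.

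In the list of the transcription complex and the HES and HEY targets, 1 of 7 genes rose and 4 fell on plates (71.4%, against 29.6% of all genes). NRARP, a feedback inhibitor and Notch target, went from 22.5 and 20.9 CPM to 10.5 and 8.59 CPM on plates (log2 -1.18, SE 0.22) and 4.89 to 9.32 CPM on films. MAML3, a coactivator of the complex, rose on plates from 152.4 and 131.1 to 241.7 and 235.9 CPM (log2 0.75, SE 0.14) and stood at 135.1 to 176.6 CPM on films. On unstimulated films MAML3 was lower than on plates by 0.72 on P(rGO) and 0.79 on ITO on the log2 scale, with no call on PEDOT:PSS, and these calls too held only in the fit without plate replicate 2.

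Among 4 other proneural and neuronal bHLH genes tested, 2 fell on plates (50%, against 29.6% of all genes) and none was called against plates on a film. ATOH8, a bHLH factor outside the classical proneural set, measured 3.55 and 1.39 CPM in the untreated libraries, 0.0543 and 0 CPM on plates and at most 1.05 CPM on films. Both untreated libraries were above all others, and the fall on plates was called (adjusted p = 0.00403 in edgeR), although the call was lost without plate replicate 2 (adjusted p = 0.059).

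Of the 6 bHLH partners and ID inhibitors tested, 1 rose and 4 fell on plates (83.3%, against 29.6% of all genes), and 3 rose on unstimulated ITO against plates (50%, against 4.23% of all genes). ID4 increased in group means from 3.26 CPM in untreated cells to 8.63 CPM on plates and 26.4, 24.1 and 18.3 CPM on P(rGO), PEDOT:PSS and ITO without stimulation. It was called against plates on each of these films, and the call held in each fit without a library on P(rGO) but in none on the other films. With stimulation, ID4 averaged 11.1, 17.3 and 18.3 CPM on P(rGO), PEDOT:PSS and ITO and was not called against plates. On stimulated P(rGO) its libraries, at 13.8 and 8.45 CPM, overlapped those of differentiated plates, at 9.83 and 7.44 CPM. ID1 fell on plates from 27.6 and 98.2 to 1.30 and 1.098 CPM (log2 -5.70, SE 0.80). The rises of ID1 (3.73, SE 0.78) and ID2 (2.32, SE 0.56) on unstimulated ITO fell to 1.84 (adjusted p = 0.261) and 0.65 (adjusted p = 0.583) without ITO replicate 2.

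Of 9 factors that act beside or after proneural proteins, 1 rose and 2 fell on plates (33.3%, against 29.6% of all genes). Against plates, unstimulated P(rGO) gave 1 rise and 3 falls (44.4%, all genes 4.63%), PEDOT:PSS 1 fall (11.1%, all genes 1.48%) and ITO 3 falls (33.3%, all genes 4.23%). SOX11, a neuronal SOX factor, measured 259.9 and 449.4 CPM in untreated cells, 278.2 and 243.6 CPM on plates and 96.7 to 164.0 CPM on films, so films lay below all plate libraries. Its call on unstimulated ITO (log2 -1.34, SE 0.20) held in each fit without a library, and that on P(rGO) (-0.91, SE 0.20) only in that without plate replicate 2. CBFA2T2, a corepressor known to act against proneural factors, rose on plates (0.55, SE 0.12) and was lower than on plates on all 3 unstimulated films (-0.81 on P(rGO), PEDOT:PSS -0.55, ITO -0.67). The CBFA2T2 call on P(rGO) held in each fit without a library, that on ITO was lost without ITO replicate 2 (adjusted p = 0.0718), that on PEDOT:PSS in each fit, and the rise on plates without plate replicate 2 (0.0522).

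**Figure D5:**
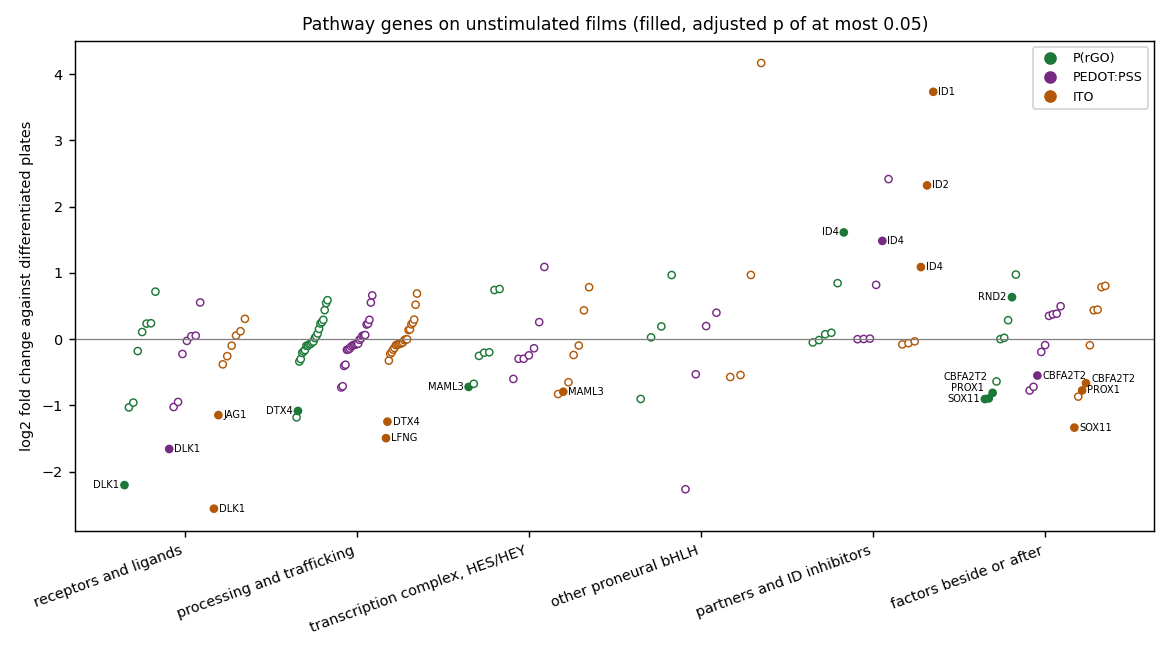
Log2 fold changes of the tested pathway genes against differentiated plates on the unstimulated films, by list. Filled, named points passed an adjusted p of 0.05: DLK1 lies below 0 on all 3 films and ID4 above 0 on all 3.

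Finally, the genes most like each member were taken by Pearson correlation of log2 CPM over the 16 libraries, among 11254 genes. For NEUROG2 these were PQBP1 (0.946), DCLK3 (0.926) and INSM2 (0.926), and for HES1 SYNJ2 (0.937), CRYZ (0.895) and NPAS2 (0.869). HEY1 was followed by RIT2 (0.969), SPTBN1 (0.963) and DNM3 (0.959), and NOTCH1 by ABCB4 (0.975), NEURL1B (0.953) and CKAP5 (0.947). For NOTCH2 they were NID1 (0.956), STK17B (0.939) and EXT2 (0.925), and the nearest to HES6, DLL3 and NEUROD1 were CCDC92 (0.897), SLC29A4 (0.947) and IFRD2 (0.928). Most of these patterns rest on the steps between untreated, plate and film groups: within the 12 film libraries the correlation of NEUROG2 with PQBP1 was 0.804 and that of HEY1 with DNM3 0.66.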

How the data were processed

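Per the labels' protocols, poly(A) RNA was made into strand-specific libraries. The deposited table holds HTSeq counts of reads per gene for 16 libraries, and the submitters' processing notes name STAR, HTSeq, GRCh38.p13 and hg38. The strand setting, the tool versions and the annotation are not given in the sources used here. The 5 summary rows were left out of library sizes and tests. Symbols were matched for 62639 IDs, and coordinates came from a GENCODE annotation of GRCh38.

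All fits used R 4.3.3 and edgeR 4.0.16: default expression filter, TMM scaling, 1 mean per group over 16 libraries (8 residual degrees of freedom), robust quasi-likelihood test, Benjamini-Hochberg adjustment over 18081 genes. Standard errors are the log2 fold change over the root of F, and correlations used log2 CPM with a prior count of 2. The replicate numbers shared by the groups are no block in the main model. Scripts were tested on simulated data. Alternatives were scaling by relative log expression, all genes kept without the filter, DESeq2 1.42.0, a block for the replicate number, only the groups compared, and each library left out. A fit without the untreated libraries was added after seeing the data.

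The members, the lists and the rule for named genes were chosen with earlier results of these data known. The rule took all members, per list and comparison at most 3 rises and 3 falls, the largest of the called genes with at least 1 CPM in a group, and the 3 genes most like each member among genes of at least 5 CPM in a group. FAM120B, PSMB1, TBP and the copies of NOTCH2 were named after their values were seen.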

Additional observations from a re-analysis of the deposited data

How the results depend on the processing

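No called member reversed its direction under any alternative run, and scaling by relative log expression kept the number of members called in each comparison. On plates against untreated cells 6 members were called, and 1 in a fit of only the groups compared. On unstimulated P(rGO) against plates the count of 2 became 5 without the low-count filter and 4 with DESeq2 or without the untreated libraries. On unstimulated and on stimulated PEDOT:PSS the count of 1 became 4 without the filter and 3 with DESeq2, without the untreated libraries or with the replicate block. On stimulated P(rGO) the count of 1 became 2 without the filter, with DESeq2 or without the untreated libraries. Between films, 1 member was called without the filter for ITO against P(rGO) and for PEDOT:PSS against ITO. Leaving out each library in turn gave 3 to 6 members on plates against untreated cells, 0 to 3 on unstimulated P(rGO), 0 to 2 on unstimulated PEDOT:PSS, 1 to 4 on unstimulated ITO, 6 to 7 for the films against untreated cells, 0 to 1 on stimulated P(rGO), 0 to 2 on stimulated PEDOT:PSS and 0 to 1 on stimulated ITO, where the main count was 3. No member was called for stimulation in any such fit.

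Over all genes, calls against plates went, for P(rGO), PEDOT:PSS and ITO without stimulation, from 838, 267 and 764 to 1625, 872 and 1430 without the filter and 1463, 664 and 1211 with DESeq2, and with stimulation from 303, 226 and 394 to 1211, 896 and 1051 and to 830, 657 and 704. On plates against untreated cells they went from 5353 to 320 in a fit of only those groups. The cause of these changes was not tested. The smaller fits changed the number of samples, the genes kept and the estimate of the spread together, so these cannot be told apart. Same-numbered replicates deviated together by more than 0.1 in 16 of 28 pairs of groups (correlations from -0.189 to 0.294) and in 13 of the 15 pairs of film groups. A prefix in the labels also follows the replicate number in every group, with no meaning given. Since not every pair exceeded 0.1, the numbers were not taken to pair the samples, although a shared batch cannot be told from these labels. With the replicate block, 3 members instead of 2 were called on unstimulated P(rGO) and 4 instead of 3 on unstimulated ITO, HEY1 being the gene gained (adjusted p = 0.0317 and 0.0231), and HEY1 and NOTCH2 were gained on unstimulated PEDOT:PSS (0.0255 each). Depth limits NEUROG2 on ITO, which rests on 6 and 12 reads in its unstimulated libraries.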

Other observations

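Some genes of these families held no or almost no reads in any library. Of the 22 list genes that were not tested, 8 were at 0, among them NOTCH4, HES5, NEUROG1 and ID3, and MAML1 and INSM1 held 4 reads each. As MAML1 is a broadly expressed coactivator and INSM1 a neuroendocrine factor of neuroblastoma, and as FAM120B held 2 reads, these zeros and low counts were not read as levels of the genes.

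ATOH8 was among the genes higher in unstimulated ITO replicate 2, at 1.05 CPM against 0.118 CPM in replicate 1, beside HES1, ID1 and ID2. HES7, a further HES repressor, differed between replicates in several groups, with 5.03 and 25.2 CPM in untreated cells and 13.9 and 3.40 CPM on stimulated P(rGO), and its fall on plates (log2 -2.09) was called in 1 of 4 fits that left out a library.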
